A study of Mus musculus with 12 samples.

Results

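Integrin-linked kinase (ILK) sits beneath the integrins, the receptors through which a heart muscle cell holds the matrix around it. It binds PINCH and parvin, and through them joins integrin tails to the actin cytoskeleton, and it has also been described as a kinase upstream of Akt and of glycogen synthase kinase 3. In the heart, loss of ILK is known to end in dilated cardiomyopathy, and mice that overexpress it in cardiac muscle have been made to ask whether more of it protects the myocardium. The S343D form replaces a serine that can be phosphorylated with an aspartate, a substitution meant to mimic a kinase that stays active. The question here was what that transgene did to the transcripts of the heart.

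The comparison was between 3 hearts labelled ILKS343D Tg (S343D hearts) and 6 hearts labelled WT (control hearts), which make 9 of the 12 hearts in the series. All were chosen by the genotype in their labels. The other 3 hearts, labelled ILKR211A Tg, carry a second ILK mutant. They are used here to share the estimate of spread, for a direct contrast of the 2 lines and for some values beside the controls. RNA was hybridized with 1 array per mouse to the mouse 430 2.0 array.

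All mice were C57BL/6 and between 8 and 9 weeks old, and no label names a surgery or a drug. The S343D hearts carry a human ILK gene with the mutation, overexpressed in the heart only, beside the mouse gene. The controls are named as littermates. Which promoter drives the transgene, how many founder lines there are and which mice came from which litter are not stated, so p-values measure the spread between separate mice. The controls carry no transgene and bear 2 runs of replicate numbers, called the first and the second set. No source used here says which set belongs to the S343D line. By replicate, the heart numbers are 2, 4 and 5 for the S343D mice and 1, 3 and 6 for the first set. They are 7, 9 and 12 for the R211A mice and 8, 10 and 11 for the second set. Mice of the same replicate number thus have neighbouring heart numbers in S343D and the first set, and in R211A and the second set. Line and run of heart numbers cannot be told apart in the contrast of the 2 lines. All mice are labelled female except replicate 1 of the first set, a male by its label. The signal of Xist, the RNA of the inactive X chromosome in female cells, was 718 in that mouse and between 703 and 864 in all 9 hearts, which goes against the male label. The label of 1 control names the left ventricle and the other labels name the heart. All 12 cardiomyocyte markers were measured, and Myh6, the adult cardiac myosin heavy chain, had signals between 11327 and 14185 in all 9 hearts. For the arrays the methods speak of R211A mice with and without infarction, but the labels give 3 genotypes, and the labels were followed.

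Values are signals from the MAS5 algorithm, which gives each probe set 1 number on a linear scale, and differences are on the log2 scale, S343D minus control, so that 1 is a doubling. Of 45037 probe sets other than array controls, 22519 whose mean over the arrays reached a signal of 43.5, the median, entered the limma fit, and 11189 genes had a probe set among them. The tests were two-sided, and a difference was called where the Benjamini-Hochberg adjusted p was under 0.05. The 95% intervals given with differences come from the same fit and are not adjusted for the number of genes. Where single genes are given an exact permutation p, 3 hearts against 6 allow 84 splits and no p below 0.0119.

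Ilk was higher in every S343D heart than in any control. Its signal was 3258, 3272 and 4016 in the 3 S343D hearts. In the controls it was 611, 657 and 630 in the first set and 585, 572 and 551 in the second. No control came near the transgenic hearts, and the 6 controls lay closer together than the 3 transgenic hearts did. The means were 3515 ± 434 (SD, n = 3) and 601 ± 39 (SD, n = 6), a log2 difference of 2.54 with an interval from 2.37 to 2.71 (adjusted p = 1.6e-10 from limma). The exact permutation test gave p = 0.0119, the smallest that it can give. Against the first set alone the difference was 2.47 and against the second set alone it was 2.62. The annotation used here names Ilk for 1 probe set. It was made for the mouse transcript and the transgene is human, so the fold that it shows is a reading of both transcripts by mouse probes.

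Ilk was also lower in S343D than in R211A hearts, where its signal was 8223, 9553 and 8622. The log2 difference between the lines was -1.33 (adjusted p = 1.12e-05 from limma), and all 3 R211A hearts stood above all 3 S343D hearts.

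**Figure D1:**
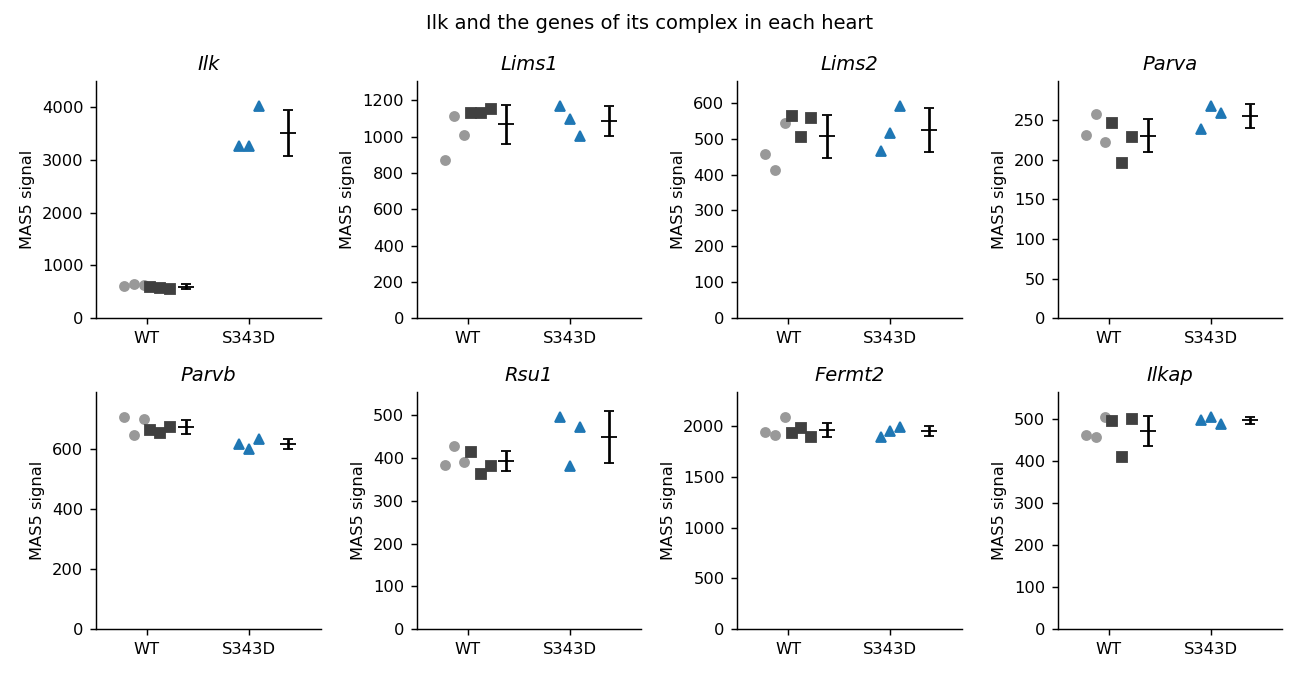
Signal of Ilk and of 7 genes of its complex in each heart, with 1 panel per gene, MAS5 signal on a linear axis that starts at 0, grey circles for the first and dark squares for the second control set, blue triangles for S343D hearts, and bars for the mean and SD of the 6 controls and the 3 S343D hearts. Ilk lies between 3258 and 4016 in S343D hearts and between 551 and 657 in controls, whereas the other genes overlap or, for Parvb, lie side by side.

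No partner of ILK passed the test, and for several the data bound a difference tightly. The stability of ILK in cells is known to depend on PINCH and parvin, and the genes of that complex were therefore read in full, 10 of the 11 listed being above the filter. Lims1, which encodes PINCH1, had signals of 1166, 1096 and 1001 in S343D hearts and 1067 ± 109 (SD, n = 6) in controls, a log2 difference of 0.03 with an interval from -0.15 to 0.21. Lims2, which encodes PINCH2, differed by 0.05 (-0.18 to 0.29). Fermt2, the kindlin that activates integrins in muscle, measured 1895, 1957 and 1993 against 1959 ± 70.3 (SD, n = 6), and its interval from -0.11 to 0.10 is the narrowest of the group. For these 3 genes a 2-fold difference in either direction lies outside the interval.

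Among the parvins, Parva, the widely expressed member, had signals of 239, 267 and 260 against 231 ± 21 (SD, n = 6) in controls (log2 difference 0.15, -0.04 to 0.35). Parvb, the parvin enriched in heart and skeletal muscle, measured 616, 600 and 632 in S343D hearts, while the controls ran from 647 over a median of 668 to 705. Every S343D heart was thus below every control, at a log2 difference of -0.13 (-0.29 to 0.03), and the adjusted p was 0.995 from limma. A second, dimmer probe set of Parvb differed by -0.62 with overlapping groups. Rsu1, which binds PINCH1, differed by 0.19 (-0.01 to 0.38), with 2 S343D hearts at 496 and 474 above all controls and the third at 380 among them. Ilkap, a phosphatase that binds ILK, differed by 0.08, Fermt3, the kindlin of blood cells, by 0.21, and Parvg, the parvin of blood cells, by less than 0.01 either way.

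Outside Ilk, no probe set passed the threshold. Limma called 1 of 22519 tested probe sets (0.00444%) and 1 of 11189 genes (0.00894%), which was higher, and none was lower. At an unadjusted p under 0.05 there were 897 (3.98%), 479 higher (2.13%) and 418 lower (1.86%), and when each array was centred on its median instead the split was 262 higher and 516 lower. The groups did not overlap at 457 probe sets (2.03%), 250 higher (1.11%) and 207 lower (0.919%). Counted as genes, 424 of 11189 (3.79%) had an unadjusted p under 0.05, 222 higher (1.98%) and 202 lower (1.81%), and 49.8% of genes had a difference above 0. These shares are the background against which the gene groups below are read.

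The precision was enough to place limits on most transcripts. For 21954 of the tested probe sets the 95% interval lay within a 2-fold difference in both directions, and for 72.8% it lay within 0.5 on the log2 scale. The middle 95% of all differences ran from -0.30 to 0.36. The median SD of log2 signal was 0.14 among the S343D hearts, 0.16 within the first and 0.14 within the second control set, so the transgenic hearts varied among themselves about as much as mice of a control set. Correlations of log2 signal between S343D and control hearts (0.971 to 0.983 over 18 pairs) spanned the same range as those among the controls (0.969 to 0.982 over 15 pairs). With 1 array per mouse, precision is set by the number of mice.

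**Figure D2:**
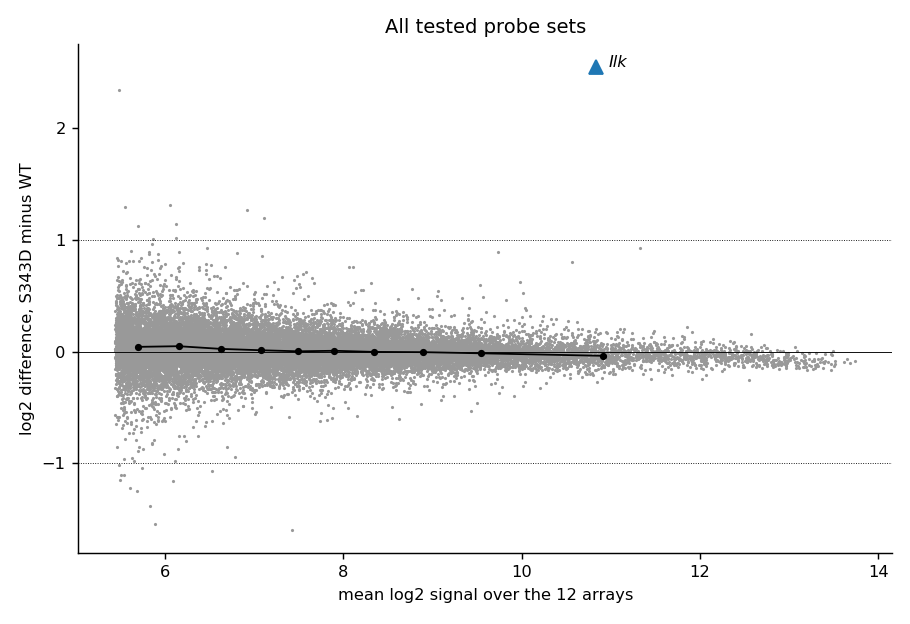
Log2 difference between S343D and control hearts against the mean log2 signal over the 12 arrays for the 22519 tested probe sets (grey), with Ilk as a blue triangle, dotted lines at a 2-fold difference and a black line for the median gene in each of 10 bins of signal. Ilk stands alone at 2.54, and the line runs from 0.04 among the dimmest to -0.04 among the brightest.

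No gene of the pathways that ILK is described to drive passed the test. The kinases and substrates of the PI3K, Akt and GSK3 pathway were represented by 29 tested genes, of which 11 were above 0, with a median of -0.03. Akt1, the kinase that ILK is said to activate, measured 625, 728 and 752 in S343D hearts against 744 ± 89.2 (SD, n = 6) in controls, a log2 difference of -0.08 (-0.31 to 0.15). Ctnnb1, which encodes beta-catenin, differed by -0.06 (-0.21 to 0.10). Gsk3b, the kinase that Akt restrains, was the member of this list with an unadjusted p under 0.05. Its signal was 827, 781 and 811 in S343D hearts, while the controls ran from 601 over 681 to 735, so the groups did not overlap (log2 difference 0.26, 0.09 to 0.43, adjusted p = 0.995 from limma). Of 5 further probe sets of Gsk3b, the brightest differed by -0.01 and the rest by 0.01 to 0.23, so its probe sets disagree.

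Transcription is only an indirect reading of such signalling, which acts by phosphorylation, and the targets were read for that reason. Of 26 listed targets and secreted modulators of Wnt and beta-catenin 13 were tested, and 10 of these were above 0, with a median of 0.18. Without single mice this median ranged from 0.06 to 0.29, and over the other alternatives from -0.01 to 0.26. The highest members were Dkk3 (0.65), which is also in the atrial list, Apcdd1 (0.55) and Mmp7 (0.44). The targets Axin2, Znrf3, Ccnd1 and Cd44 differed by 0.06, -0.02, -0.09 and 0.07, so the median is not a reading of targets alone. Sfrp2, a secreted Wnt modulator, was the 1 member with an unadjusted p under 0.05, at 90.1 ± 14.2 (SD, n = 3) against 68.8 ± 8.19 (SD, n = 6) and a log2 difference of 0.39 (0.06 to 0.72). Of 18 tested targets and regulators of YAP and SRF, 10 were above 0 and the median was 0.01. Mrtfa, a coactivator of SRF that responds to actin, differed by -0.37 (-0.69 to -0.06), and Srf itself by -0.18 (-0.38 to 0.02). Integrins and focal adhesion genes gave 15 of 31 above 0 and a median of -0.02. Itga5, the fibronectin receptor subunit, was at 151 ± 17.3 (SD, n = 3) against 179 ± 13.3 (SD, n = 6), a log2 difference of -0.24, and Tln1, which encodes talin, was at -0.18 (-0.40 to 0.03).

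ILK overexpression in epithelial cells is known for an epithelial to mesenchymal switch, and 12 of 14 tested genes of that switch were above 0, with a median of 0.09. Zeb2, a repressor of epithelial genes, had signals of 192, 197 and 246 in S343D hearts and no control above 186, at a log2 difference of 0.35 (0.07 to 0.63). Against the first control set the difference was 0.20 and against the second it was 0.50. Fn1, which encodes fibronectin, differed by 0.31 (0.02 to 0.61), and its highest control, at 491, lay among the S343D hearts at 485, 428 and 505.

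**Figure D3:**
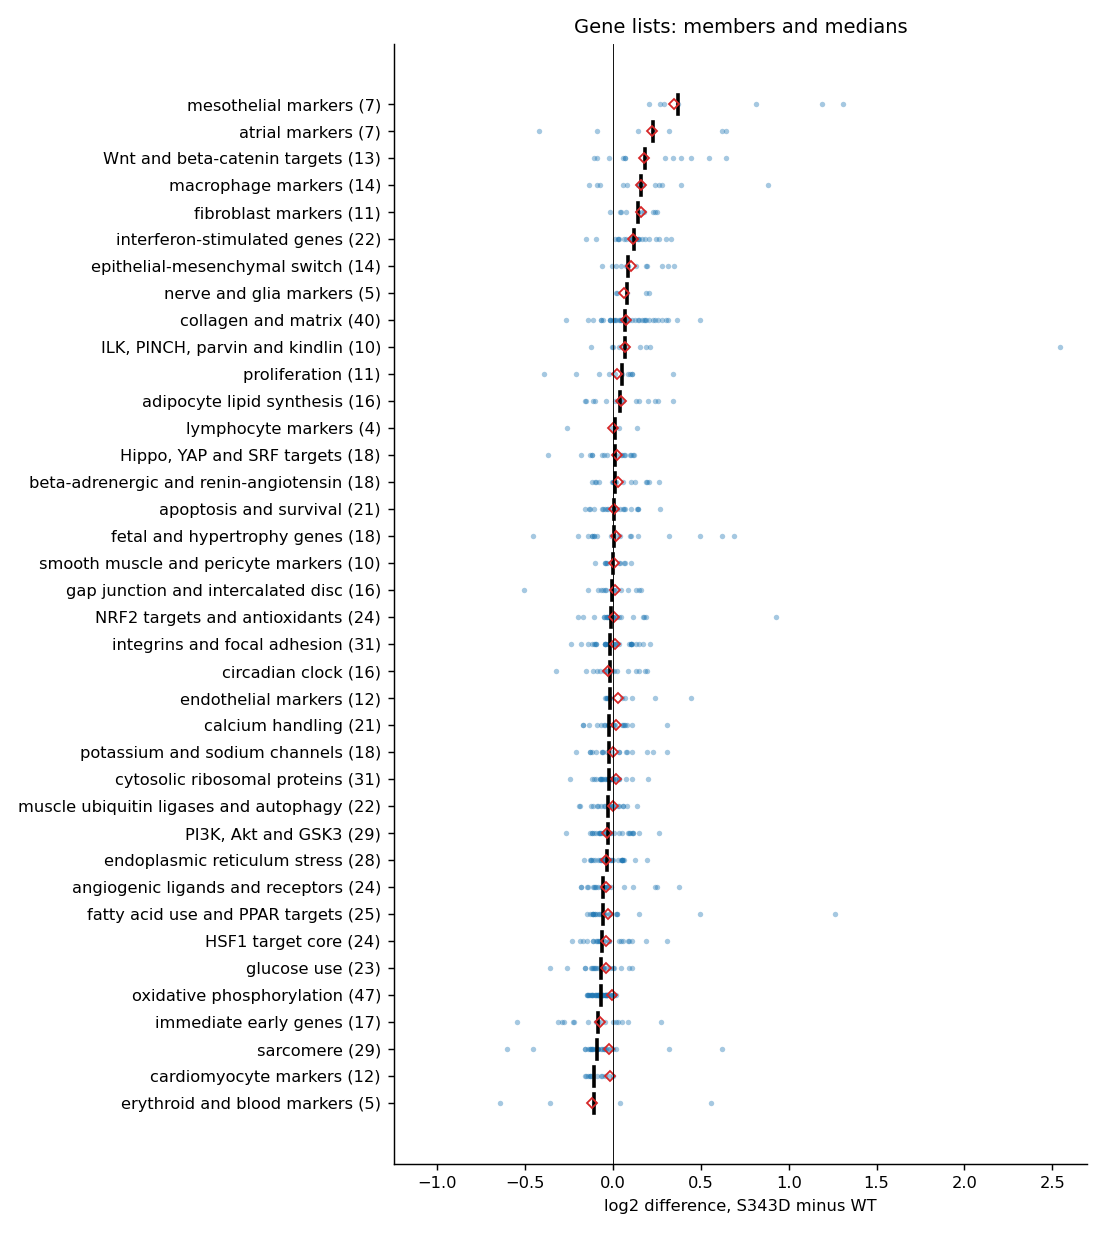
Log2 difference between S343D and control hearts for the tested members of each gene list (blue points, number of genes in brackets), for lists with at least 4 tested genes, with the list's median as a black bar and its median after quantile normalization of the arrays as a red diamond. Medians run from -0.11 for the erythroid and cardiomyocyte lists to 0.37 for the mesothelial list, Ilk stands apart at 2.54, and the diamonds of the sarcomere, cardiomyocyte and oxidative phosphorylation lists lie close to 0.

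The contractile and mitochondrial genes were mostly below 0 in the deposited values, by an amount that depended on how the arrays were put on 1 scale. Of 47 tested subunits of oxidative phosphorylation, 44 were below 0, with a median of -0.07 and none at an unadjusted p under 0.05. Of 12 cardiomyocyte markers 11 were below 0 (median -0.11), and of 29 sarcomere genes 25 were (median -0.09). Their probe sets are among the brightest on the arrays. All 47 of the first list, 11 of the cardiomyocyte markers and 25 of the sarcomere genes lay among the 1119 brightest of the 11189 genes, with signals above 1078, and of those 71.8% were below 0 with a median of -0.04. Of the 1119 dimmest genes 41.6% were below 0 and the median was 0.04. After quantile normalization, 56.6% of the brightest 1119 were below 0, as were 26 of the 47 oxidative phosphorylation genes, and the 3 medians became -0.00, -0.02 and -0.02. When each array was centred on its median instead, they moved the other way, to -0.10, -0.14 and -0.13.

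Among single contractile genes, Myh6 measured 12004, 11327 and 12368 in S343D hearts against 12728 ± 973 (SD, n = 6), a log2 difference of -0.09 (-0.23 to 0.04). Myl2, the ventricular regulatory light chain, differed by -0.16 (-0.31 to -0.02) and Nkx2-5, a transcription factor of the cardiac lineage, by -0.15 (-0.30 to -0.01), both at an unadjusted p under 0.05. Ldb3, a protein of the Z-disc, was at -0.16 and Tnnc1, cardiac troponin C, at -0.13. Dimmer probe sets of Ldb3 differed by 0.01 and -0.25. In bulk tissue, fewer cells of a type and less RNA per cell cannot be told apart.

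Myot was the sarcomere gene with the lowest difference. It encodes myotilin, a Z-disc protein that crosslinks actin. Its signal was 362, 414 and 279 in S343D hearts, whereas the controls ran from 461 over a median of 510 to 611. All 3 S343D hearts were below all 6 controls, at a log2 difference of -0.60 (-0.91 to -0.29). The adjusted p was 0.995 from limma, so it did not pass the threshold over all probe sets. Rbm20, the splicing factor of titin, also showed no overlap, at 1057, 1077 and 946 against a lowest control of 1084 (log2 difference -0.33, -0.54 to -0.11).

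At the intercalated disc, the junction between heart muscle cells, 8 of 16 tested genes were above 0 and the median was -0.01. Ctnna3, which encodes alpha-T-catenin of that junction, was the 1 member with an unadjusted p under 0.05. Its signal was 73, 78.9 and 82.1 in S343D hearts, and no control was below 98.5 (log2 difference -0.51, -0.77 to -0.25). A second probe set of Ctnna3 at a similar signal differed by -0.07 (means of 96.5 and 96.8), so the 2 readings of this gene disagree. Dsg2, a desmosomal cadherin, was at 0.16 and Gjc1, a connexin, at 0.15, with intervals that include 0.

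Calcium handling, ion channel and adrenergic genes had medians near 0. Of 21 tested calcium handling genes 10 were above 0 (median -0.02), of 18 potassium and sodium channel genes 8 were (median -0.02), and of 18 genes of beta-adrenergic and renin-angiotensin signalling 11 were (median 0.01). Pln, which encodes phospholamban, the brake on the calcium pump, differed by -0.02 with an interval of -0.14 to 0.09. Atp2a2, the calcium pump itself, measured 8971, 7973 and 8833 against 9685 ± 938 (SD, n = 6), a log2 difference of -0.17 (-0.35 to 0.02). Slc8a1, the sodium and calcium exchanger, differed by 0.31 (0.04 to 0.58), and 1 of its S343D hearts, at 472, lay well above the others at 344 and 327. Gnaq, the G protein alpha subunit that couples to phospholipase C, was at 0.19 (-0.00 to 0.38).

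The fetal gene programme, by which a stressed heart is commonly recognised, gave 9 of 18 tested genes above 0 and a median of 0.00. Nppb, the B-type natriuretic peptide, had signals of 1956, 1658 and 1844 in S343D hearts and 2133 ± 500 (SD, n = 6) in controls (log2 difference -0.20, -0.54 to 0.14). Myh7, the slow fetal myosin, measured 678, 504 and 335 against controls from 325 to 1130. It overlapped the first set, at 637, 325 and 458, and lay below the second, at 937, 1130 and 868, so its differences were 0.09 against the first set and -1.003 against the second. Acta1, skeletal actin, was at 2149, 1687 and 1766, inside a control range of 1222 to 4001. All 3 of these markers overlapped between the groups. Nfatc4, a transcription factor downstream of calcineurin, had an unadjusted p under 0.05 at a dim signal (77.3 ± 19.7 against 48.7 ± 14.2, log2 difference 0.69, 0.16 to 1.22).

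In fuel use, genes of fatty acid oxidation and PPAR targets gave 6 of 25 above 0 and a median of -0.06. Angptl4, a PPAR target that inhibits lipoprotein lipase, measured 243, 256 and 253 in S343D hearts, 80.1, 352 and 104 in the first control set and 139, 76 and 41.7 in the second. The 3 S343D hearts were close to each other and above all controls but the highest, replicate 2 of the first set, and the log2 difference was 1.26 (0.27 to 2.26). Txnip, which restrains thioredoxin and glucose uptake, had signals of 4342, 3591 and 4157 in S343D hearts against 1248 to 3929 in controls (log2 difference 0.93, 0.28 to 1.57). Ucp3, a mitochondrial carrier induced by fatty acids, measured 741, 784 and 706 against 308 to 959 (0.49, -0.03 to 1.02). The same control mouse, replicate 2 of the first set, gave the highest control value for all 3 genes, and the adjusted p was 0.995 for each from limma.

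Of 23 tested genes of glucose use, 19 were below 0 with a median of -0.07. An unadjusted p under 0.05 was reached by 3, all lower and without overlap (background 1.81% of genes lower at that p, 0.929% without overlap). Pgam1, a phosphoglycerate mutase of glycolysis, had signals of 431, 441 and 474 in S343D hearts and 499 to 589 in controls (log2 difference -0.26, -0.43 to -0.09). Hk2, the insulin-responsive hexokinase, was at 2536, 2431 and 2494 against a lowest control of 2567 (-0.16, -0.28 to -0.04). Eno3, the muscle enolase, was at 5884, 5655 and 5927 against a lowest control of 5940 (-0.13, -0.25 to -0.01). Gys1, glycogen synthase of muscle, differed by -0.36 (-0.73 to 0.01). Among the brightest 1119 genes were 17 of the 23, and after quantile normalization the list's median was -0.04. With each array centred on its median it was -0.10.

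Most matrix and fibroblast transcripts were above 0, and none passed the test. Of 40 tested collagen and matrix genes 30 were above 0, with a median of 0.07, and 3 had an unadjusted p under 0.05. Of 11 fibroblast markers 10 were above 0, with a median of 0.14, and none had an unadjusted p under 0.05. The median of the matrix list was 0.01 against the first control set and 0.18 against the second, and that of the fibroblast list 0.06 and 0.23, so their size depended on the controls. For R211A hearts minus controls the 2 medians were 0.08 and 0.09. Lum, the proteoglycan lumican, differed by 0.23 (-0.01 to 0.46) and Postn, periostin, by 0.24 (-0.07 to 0.55), whereas Col1a1, the main chain of type I collagen, measured 513, 690 and 667 in S343D hearts against 603 ± 72.4 (SD, n = 6). The summed signal of the fibroblast markers was 20236 to 21633 in S343D hearts and 17482 to 21113 in controls.

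Lamb1, the beta-1 chain of laminin, was the matrix gene with the smallest p. Its signal was 492, 416 and 474 in S343D hearts and no more than 404 in any control, at a log2 difference of 0.37 (0.17 to 0.56), and the adjusted p was 0.995 from limma. Its 2 dimmer probe sets differed by 0.20 and 0.01. Nid1, nidogen of the basement membrane, differed by 0.18 (0.02 to 0.34), and by -0.06 at a second, dimmer probe set. Ltbp3, which binds latent TGF-beta, measured 487, 483 and 475 against a highest control of 422 (0.33, 0.15 to 0.51). A second, dimmer probe set of Ltbp3 differed by 0.09. Aebp1, a secreted protein of collagen assembly, measured 143, 134 and 156 against a highest control of 117 (0.55, 0.26 to 0.84).

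Among angiogenic ligands and receptors, 5 of 24 were above 0 and the median was -0.05. Angpt1, the agonist of the endothelial receptor Tek, measured 838, 809 and 701 in S343D hearts, against a range from 493 over 588 to 742 in controls (log2 difference 0.38, 0.13 to 0.62). Tek, its receptor, measured 506, 535 and 584 against 403 to 521 (0.24, 0.06 to 0.41). In both genes a single S343D heart or control caused the overlap. A second, dimmer probe set of Angpt1 differed by 0.20. The ligand stood apart between the lines. R211A hearts had Angpt1 signals of 408, 340 and 316, below every control, and S343D minus R211A was 1.15 (adjusted p = 0.00205 from limma). That contrast thus holds the lower R211A signals as well as the difference of S343D hearts from controls. Over all tested probe sets 36 were called in that contrast, 15 higher (0.0666%) and 21 lower (0.0933%). Vegfa, the main vascular growth factor, differed from controls by -0.18 (-0.37 to 0.01). Of 12 endothelial markers 5 were above 0, with a median of -0.02.

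Genes whose groups did not overlap numbered 119 higher (1.06%) and 104 lower (0.929%), and of the 15 higher ones with the smallest p, 14 are described here beside Ilk. Only Gpc3 and Lamb1 of them were in a list. Psmg4, a chaperone of proteasome assembly, measured 334, 279 and 241 in S343D hearts, and controls reached 231 (log2 difference 0.65, 0.34 to 0.96). Klf11, a transcription factor of the Krüppel family induced by TGF-beta, measured 229, 196 and 242 against a highest control of 186 (0.57, 0.28 to 0.87). F2r, the thrombin receptor, measured 848, 759 and 740 against a highest control of 711 (0.29, 0.14 to 0.45). Enpep, the aminopeptidase that cleaves angiotensin II, measured 271, 257 and 262 against 242 (0.36, 0.14 to 0.59). Hmgn3, a nucleosome-binding protein, came nearest to overlap, with S343D hearts down to 259 and a control at 255. The others were Gpc3, Akr1c14, Lamb1, Aebp1, Ccdc59, Ltbp3, Tle6, Rph3al and Scamp1, with differences from 0.33 to 0.81. A second probe set of Scamp1 differed by -0.05, opposite in sign to the brighter one.

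The 15 lower genes with the smallest p and no overlap had differences from -0.62 to -0.23. Besides Myot, Ctnna3, Rbm20 and Pgam1 they include Tomm40, Timm21 and Lyrm4, which encode mitochondrial proteins. Tomm40, the import channel of the outer membrane, measured 512, 541 and 592 in S343D hearts and no less than 614 in controls (log2 difference -0.28, -0.44 to -0.12). Timm21, of the inner membrane translocase, measured 554, 523 and 571 against at least 613 (-0.23, -0.36 to -0.11). Lyrm4, needed to build iron-sulfur clusters, measured 105, 164 and 186 against at least 194 (-0.62, -0.94 to -0.31).

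Akr1e1, an aldo-keto reductase, measured 198, 211.2 and 233 against at least 249 (-0.45, -0.67 to -0.24), and Ikbkg, the regulatory subunit of the kinase that releases NF-kappaB, 196, 214 and 232 against at least 247 (-0.26). Of the 5 further probe sets of Ikbkg, 4 were below 0 and 1 above, from -0.48 to 0.03. Def8, Tmem131l, Lcmt2, Akna, Ufm1 and 2310061I04Rik complete the list. A second probe set of 2310061I04Rik at a signal of 1217 and 1160 differed by 0.07, and one of Tmem131l by 0.14, both opposite in sign to the brighter one. None of these 29 genes beside Ilk had an adjusted p below 0.995 in limma.

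**Figure D4:**
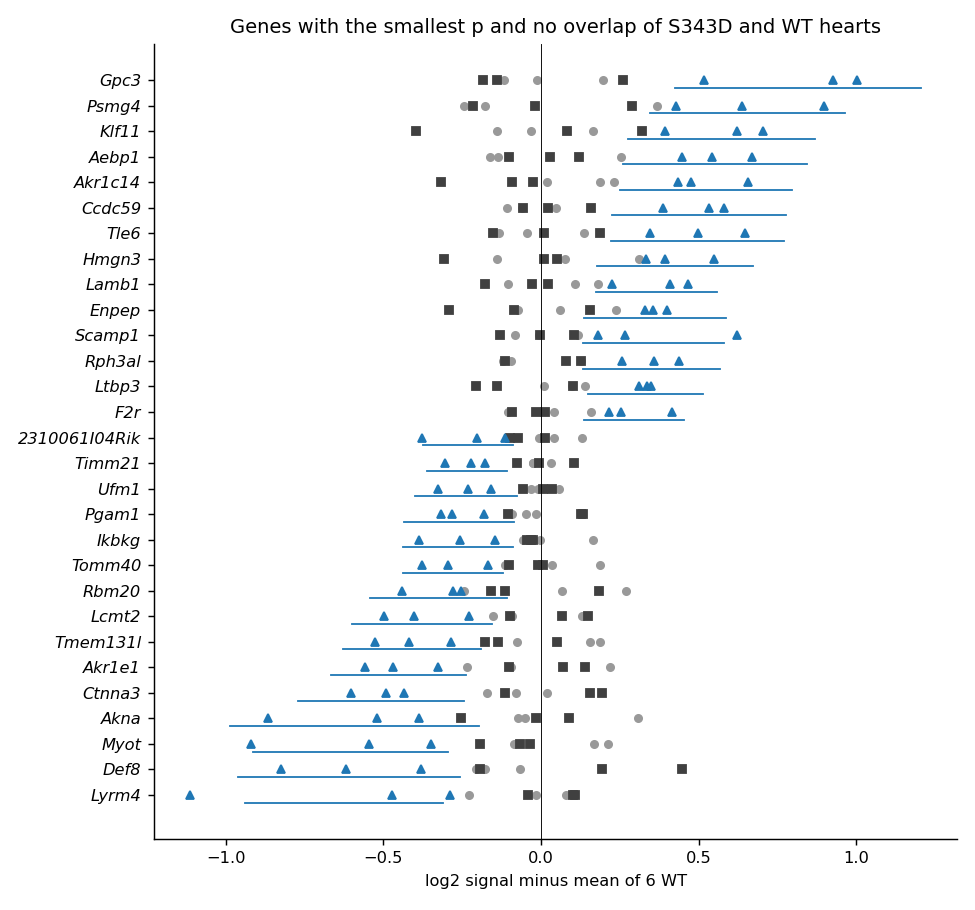
Log2 signal minus the mean of the 6 controls in each heart for the 14 higher and 15 lower genes with the smallest p among those whose S343D and control hearts did not overlap, Ilk left out, with grey circles and dark squares for the 2 control sets, blue triangles for S343D hearts and a blue line for the 95% interval of the difference. The genes were chosen for this separation, and their differences lie between -0.62 and 0.81.

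The mesothelium, the cell layer that covers the heart, gave the list with the highest median among those with at least 4 tested genes, with all 7 tested markers of 9 listed above 0, a median of 0.37, and 4 at an unadjusted p under 0.05, all higher (background 1.98% of genes). Gpc3, among these 4, passed the filter only through the transgenic hearts, so its part in these counts is not independent of the filter. In Upk3b and Lrrn4 the highest values came from 2 mice. Upk3b, a uroplakin of mesothelial cells, measured 283, 308 and 141 in S343D hearts, 72.2, 170 and 71.2 in the first control set and 153, 63.3 and 126 in the second. Lrrn4, another gene of that layer, measured 177, 169 and 55.6 against 33.1 to 80.2. S343D replicates 1 and 2 were above every control for both genes and replicate 3 was within the control range. The log2 differences were 1.19 (0.43 to 1.95) for Upk3b and 1.31 (0.60 to 2.02) for Lrrn4. Without S343D replicate 3 the difference of Lrrn4 became 1.85, with an adjusted p of 0.0784 from limma.

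Gpc3, the glypican-3 proteoglycan, separated the groups fully, at 85, 80.5 and 60.7 in S343D hearts against 37.3 to 50.8 in controls (log2 difference 0.81, 0.42 to 1.20). Its control mean of 42.7 is just under the filter limit of 43.5, so its fold rests on a dim baseline. It was tested only because transgenic hearts raised its mean over the arrays. Upk1b, a second uroplakin, differed by 0.37. Wt1, Krt8 and Aldh1a2, markers that fibroblasts or other epithelia can share, differed by 0.20 to 0.29 with intervals that include 0. The summed signal of the 7 markers was 527 to 1021 in S343D hearts and 387 to 685 in controls. Without any single mouse the median of the list stayed between 0.26 and 0.52. R211A hearts were also above the controls over these markers, with a median difference of 0.28. The median of S343D minus R211A was 0.12, so the rise was not particular to S343D hearts.

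The atrial genes varied from mouse to mouse within each genotype. Myl7, the atrial light chain, had signals of 2326, 4709 and 63.6 in S343D hearts, 131, 2534 and 359 in the first control set and 3707, 187 and 1583 in the second. Nppa, the atrial natriuretic peptide, measured 5224, 7606 and 1570 against 2031 to 6691, and Sln, sarcolipin, measured 1919, 3682 and 7.79 against 79.2 to 2202. The summed signal of the 7 atrial markers was 2253 to 21938 in S343D hearts and 2961 to 16607 in controls, so the groups overlapped almost wholly. S343D replicates 1 and 2 were high and replicate 3 low in Myl7, Nppa and Sln, as in Upk3b and Lrrn4, and the 3 controls with the highest Upk3b were the 3 with the highest Myl7. The part of atrial tissue in the mesothelial values was not tested. The intervals of most atrial genes were wide, with -1.62 to 2.86 for Myl4, the atrial essential light chain, and -3.66 to 3.47 for Sln, while that of Kcnj3, a potassium channel subunit, was -0.12 to 0.58.

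**Figure D5:**
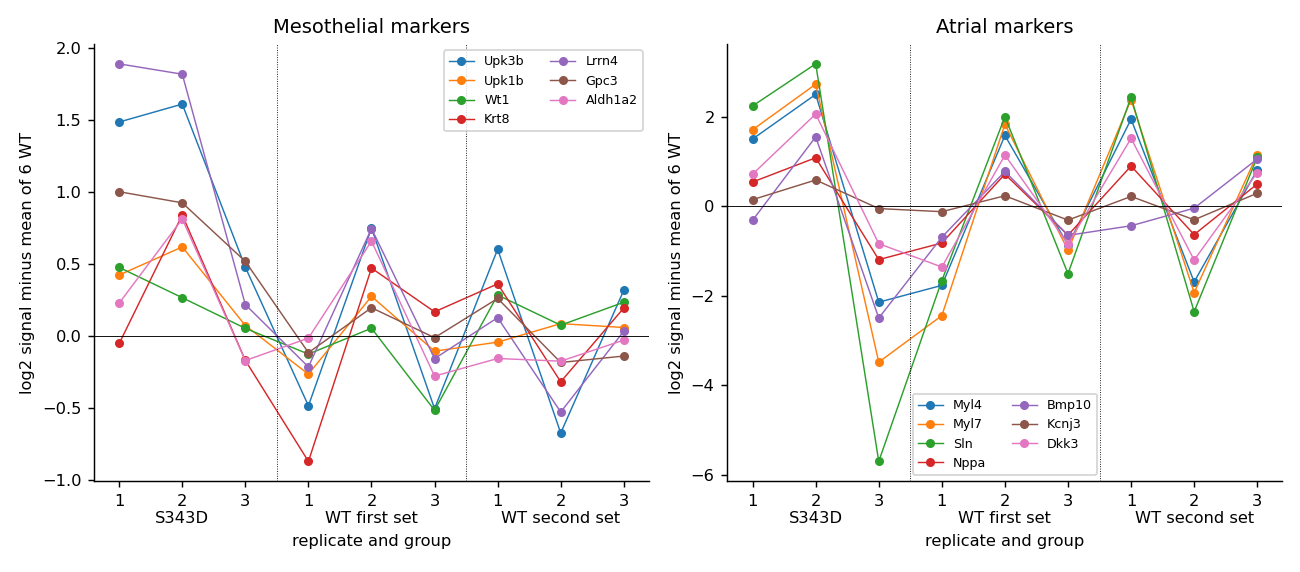
Log2 signal minus the mean of the 6 controls for each tested mesothelial marker (left) and atrial marker (right), with 1 point per heart, genes joined by lines that only guide the eye, and dotted lines between the S343D hearts, the first and the second control set. S343D replicates 1 and 2 lie above all controls in Upk3b and Lrrn4 while replicate 3 does not, and the atrial genes swing between hearts of every group.

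A total of 9 genes differed by more than 1 on the log2 scale at their brightest probe set, 6 higher and 3 lower. The higher ones were Ilk, Lrrn4, Angptl4, Upk3b, Gpm6a and Stk26, the last 2 named after their values were seen. Gpm6a, a membrane glycoprotein, measured 152, 156 and 67.7 in S343D hearts against 33.8 to 92.4. Stk26, a germinal centre kinase, measured 121, 113 and 53.2 against 28.4 to 61. Both repeat the order of Upk3b and Lrrn4, with replicates 1 and 2 high and replicate 3 among the controls. The lower ones, Rbmxl2, Hs3st2 and H2-Eb2, were also named after their values were seen, and all were dim with overlapping groups. H2-Eb2, for example, measured 36.7, 17.9 and 48.5 in S343D hearts against 47.7 to 96.1.

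No gene of the immune and stress lists passed the test. Of 14 macrophage markers 11 were above 0, with a median of 0.16, which was 0.10 against the first control set and 0.24 against the second. Cd163, a scavenger receptor of resident macrophages, measured 93.8, 105 and 112 in S343D hearts against 69.7 to 94.9 (log2 difference 0.38, 0.11 to 0.66). Csf1r, the receptor for their growth factor, measured 788, 1009 and 900 against 710 to 916, and Cd68 was lower in mean (log2 difference -0.14), so the markers had no common sign. Their summed signal was 6221 to 7510 in S343D hearts and 5086 to 7378 in controls. Of 22 interferon-stimulated genes 20 were above 0 with a median of 0.12, which ranged from 0.04 to 0.22 without single mice, and none had an unadjusted p under 0.05. Their controls spread widely. Iigp1, an interferon-induced GTPase, measured 2044, 2015 and 1499 in S343D hearts, 1458, 2140 and 1273 in the first set and 1266, 3802 and 1096 in the second, where replicate 2 stood above all others.

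The heat shock genes lay on both sides of 0. Of 24 tested genes of the HSF1 target core 8 were above 0, with a median of -0.06. Hspa1a, the inducible Hsp70, measured 53.4, 40.5 and 33.8 in S343D hearts against 28.9 to 55.1 in controls, and the interval of the log2 difference was -0.41 to 0.58. For Hsph1, an Hsp110, it was -0.40 to 0.35, for Hsp90aa1, the inducible cytosolic Hsp90, -0.21 to 0.31, and for Hspa8, the constitutive Hsc70, -0.23 to 0.13. A 2-fold difference lay outside all 4 intervals. The Hspa1a signals here lay around the filter limit of 43.5, so the bound for that gene rests on dim values. R211A hearts, which were higher (S343D minus R211A -1.65), raised its mean over the arrays that the filter used. Dnajb4, an Hsp40, was the list's 1 gene with an unadjusted p under 0.05, at -0.23 (-0.43 to -0.04). Of 28 genes of endoplasmic reticulum stress 11 were above 0 (median -0.04), and Atf4, the transcription factor of the integrated stress response, differed by -0.17 (-0.33 to -0.00). NRF2 targets gave 9 of 24 above 0 (median -0.01), apoptosis genes 11 of 21 (median 0.01) and proliferation genes 7 of 11 (median 0.05).

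The values of the immediate early genes depended on which controls were used. Of 17 tested, 5 were above 0 and the median was -0.08, but it was 0.07 against the first control set and -0.31 against the second. Nr4a1, an orphan nuclear receptor induced within minutes by many stimuli, measured 147, 211.3 and 130 in S343D hearts, 131, 147 and 93.9 in the first set and 517, 460 and 364 in the second. The S343D hearts lay with the first set. Against the second set alone the difference was -1.48 and passed the threshold (adjusted p = 0.0234 from limma), while the first set itself differed from the second by -1.86 (adjusted p = 0.00429 from limma). Tmem267, a membrane protein, behaved likewise at a difference of 1.05 from the second set, with signals of 190, 201 and 175 in S343D hearts, 194, 213 and 239 in the first set and 91.1, 79 and 104 in the second. It was named after its values were seen. For Tmem267 the first set differed from the second by 1.24 (adjusted p = 0.00429 from limma). R211A hearts measured 68.4, 82.8 and 83.4 for Tmem267, near the second set. For Nr4a1 they measured 269, 239 and 246, between the sets. What divides the sets was not tested.

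In the remaining lists no gene passed the test. Circadian clock genes gave 7 of 16 above 0 (median -0.02), ubiquitin ligases and autophagy genes 8 of 22 (median -0.03), genes of adipocyte lipid synthesis 11 of 16 (median 0.04), and smooth muscle and pericyte markers 5 of 10 (median -0.00). Cytosolic ribosomal proteins gave 7 of 31 above 0 with a median of -0.02, which became 0.02 after quantile normalization, 28 of them being among the brightest 1119 genes. With each array centred on its median, that list's median was -0.06. Nerve and glia markers gave 5 of 5 above 0 with a median of 0.08. Of the lymphocyte markers 4 of 14 listed were tested, of the erythroid and blood markers 5 of 11, and of the adipocyte markers 2 of 8. The 2 adipocyte genes had a median of 0.42, which ranged from -0.13 to 0.90 without single mice. Xist, the 1 tested sex-linked gene, differed by 0.04 (-0.11 to 0.19). A second, dimmer probe set of Xist differed by 0.31 without overlap of the groups (means of 618 and 500, adjusted p = 0.995 from limma), and the dimmest by -0.05, so its probe sets disagree. Over all 40 lists, 31 of the 669 tested genes had an unadjusted p under 0.05, against 3.79% of all genes, and Ilk was the 1 that passed after adjustment.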

How the data were processed

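Total RNA from 12 mouse hearts was hybridized by the study to Affymetrix mouse 430 2.0 arrays, 1 per mouse. The deposited signal intensities are linear, and the authors computed them with MAS5 (its version is not given in the sources used here) so that the mean is the same on every array when the lowest and highest 2% are left out. Such scaling sets all transcripts relative to the array's mean, so a shift of many bright probe sets moves the others. Detection calls and probe-level files were not used here, and no coordinates are given because the files name no genome build.

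Samples were grouped by the genotype in their labels. Signals were taken to log2 with nothing added. The 64 controls of 45101 features were left out, and the 22519 probe sets at or above the median mean of log2 signal (5.44) were tested. The platform's annotation gives 1 gene for 34945 of the 45037 other features, more than 1 for 932 and no gene for 9160, and a gene was read from its brightest probe set that names it alone. Limma 3.58.1 in R 4.3.3 (lmFit, eBayes with trend) was fitted to all 12 arrays with 3 genotype groups, and two-sided p-values were adjusted by Benjamini-Hochberg over all tested probe sets. Single genes were also compared by exact permutation of 3 hearts against 6. The procedure was also run on simulated data with independent noise for each probe set and array, and nothing is concluded from it here. Figures used matplotlib 3.10.9 in Python 3.11.15.

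The comparison, the gene lists and the genes named were chosen with earlier results of these data known, so no p over a list alone is given. The rule names Ilk and its complex, called genes, the 15 genes with the smallest p in each direction among those whose groups do not overlap, up to 4 members of each of 40 lists with the smallest p and 16 further genes of stress, hypertrophy and ILK signalling. Cell type markers are also named. Alternatives were median centring, quantile normalization, an offset of 16 before log2, no filter or a stricter filter, other priors and array weights, a fit without R211A hearts, a replicate block, either control set by itself, leaving out any 1 mouse, the mean over a gene's probe sets, the methods' t-test and a threshold of 0.1. Leaving out mice in the contrast of the 2 lines, and the bins of signal, were added after seeing the data.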

Additional observations from a re-analysis of the deposited data

Results flagged for a closer look

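In 11 of 192 named genes, 1 of the 6 control hearts lay far from the other 5, by a gap, as a share of the whole control range, above Dixon's 95% critical value. Chance gives such a gap in about 1 of 20 genes. The gap took 0.764 of the range for Ikbkg, where replicate 2 of the first set was highest at 287, and 0.746 for Rps25, a ribosomal protein gene, in the same mouse. It took 0.649 for Gnaq, lowest in replicate 1 of the first set. In replicate 2 of the second set it took 0.682 for Sdhd, a subunit of succinate dehydrogenase, and 0.697 for Stat2, a transducer of interferon signals, both highest there, and 0.749 for Mcm7, a replication helicase subunit, 0.663 for Ulk1, an autophagy kinase, and 0.776 for Ighm, the heavy chain of IgM, all lowest there. That mouse thus accounts for 5 of the 11 genes. The gap took 0.643 for Nkx2-5 and 0.681 for Hsp90aa1, both highest in replicate 3 of the second set. It was widest for Acta2, smooth muscle actin, at 0.953, where replicate 1 of the second set had a signal of 1171, below every other control.

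In a direct contrast of the 2 transgenic lines, 7 named genes passed the threshold in limma. The lines also differ in their run of heart numbers, and line and run cannot be told apart here. S343D minus R211A was -1.33 for Ilk, 1.15 for Angpt1, -1.65 for Hspa1a, -1.30 for Hspa1b, -1.30 for Hsph1, -0.80 for Hsp90aa1 and -0.54 for Hspa8 on the log2 scale. Over all tested probe sets 36 passed in this contrast (0.16%), 15 higher (0.0666%) and 21 lower (0.0933%). Ilk and Angpt1 passed with any 1 transgenic mouse left out, with adjusted p up to 0.000188 and 0.0253 from limma. The other 5 did not: Hspa1a, Hsph1 and Hspa8 missed the threshold in 4 of the 6 cases and Hspa1b and Hsp90aa1 in 5, with adjusted p up to 0.122, 0.115, 0.258, 0.136 and 0.206 from limma in that order.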

How the results depend on the processing

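The log2 difference of Ilk ranged from 2.44 to 2.62 over 23 alternatives, and the largest adjusted p was 0.00029. Limma called 1 probe set in these alternatives, except that 3 were called against the second control set alone, where Nr4a1 (-1.48) and Tmem267 (1.05) joined Ilk. Without single mice the count stayed at 1. The count at an unadjusted p under 0.05, 897 as reported, was 1841 without a filter and 441 with the stricter filter, where more or fewer probe sets were tested. It ranged from 700 to 1273 without single mice, highest without S343D replicate 3. The methods' t-test gave 902, and 1 after adjustment.

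A replicate block over all arrays gave 1 call and 899 at an unadjusted p under 0.05. A replicate block of the S343D hearts with the first control set alone gave 1 and 1415, for which the cause was not tested. The first set alone, in a fit of all arrays without a block, gave 1 and 1050. Same-numbered deviations of S343D hearts and the first control set correlated at 0.07, 0.21 and 0.17, and unlike-numbered ones at -0.16 to 0.002. No label states a pairing, though same-numbered mice of these 2 groups have neighbouring heart numbers. The main fit did not pair the mice, and what the numbers mark was not tested. Each S343D heart correlated best with its own number in the first set. In the second set none did. The block changed no other call.

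For the 191 named genes beside Ilk, each alternative gave 1 value per gene tested in it. Of these values, 4110 stayed within the spread between control mice, 40 moved by more and 1 passed the threshold. Among all of them, 87 had the other sign. Of 917 alternatives for list medians, 95 changed sign and 15 moved by more than that spread. Centring shifted all differences by -0.03. Dim probe sets, control means near the filter limit and 3 transgenic mice limit the folds.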
